A study of Aedes aegypti with 48 samples.

Results

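The 36 genes described here are those listed under the KEGG pathway term Phagosome in the study's enrichment analysis of genes higher in the Cyc knockout at ZT1, out of 19804 gene identifiers with counts. They were chosen by their values at ZT1, so that their differences at ZT1 are given as a description, with no test, and the tests use the libraries of ZT5, ZT9 and ZT13. The study also reported this pathway as enriched among genes higher in the knockout at each of the other times. That many members are higher at those times was therefore in part known beforehand. RNA was sequenced from whole bodies of female Aedes aegypti of the Liverpool strain, as a knockout line of the clock gene cycle (Cyc KO, written KO) and its wild type (WT). Females aged 5 days from emergence, kept at 27 °C with light and dark phases of 12 h each, were pooled by 10, and 6 libraries were made in each of 8 groups, KO and WT at ZT1, ZT5, ZT9 and ZT13. ZT is zeitgeber time, the hours since the light phase began. The knockout is carried in every tissue, all KO libraries come from the KO line, and a whole body mixes all tissues. In such samples fewer cells of a type and less RNA per cell cannot be told apart.

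A phagosome is the vesicle that forms when a cell engulfs a particle, and in mosquitoes the blood cells known as hemocytes use it to clear microbes. It fuses in turn with endosomes and lysosomes, and the vacuolar ATPase (V-ATPase), a rotary proton pump of many subunits, acidifies it so that its hydrolases can work. The KEGG map joins this pump with receptors of the cell surface, small GTPases, SNARE proteins that fuse membranes, microtubules, lysosomal enzymes and proteins of the endoplasmic reticulum (ER). Most of these parts also serve other functions, and in insects the V-ATPase energises transport across the gut and the Malpighian tubules.

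The files give identifiers and no gene names, so that each gene is described by the other terms that hold it in the same enrichment sheet. By these terms, 13 of the 36 genes belong to the V-ATPase, 4 to protein export (called ER translocation genes below), 2 to unfolded protein binding (ER chaperones), 3 to the structural constituents of the cytoskeleton, 2 to SNARE interactions, 3 to ECM-receptor interaction (adhesion), 2 to the lysosome, 2 to GTPase activity and 4 to the plasma membrane. No other term held the remaining gene, AAEL002524. The name ER chaperones is only a group label, since no term of its member AAEL015100 names the ER. No levels are compared between genes, since no gene lengths were used.

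The libraries held between 10670669 and 33232780 counts on genes, with a median of 26210624. The library labelled KO ZT13 replicate 1 had the same count as WT ZT9 replicate 2 for all 19804 identifiers and was left out, which leaves 47 libraries and 5 KO libraries at ZT13. Cyc itself (AAEL002049), given in CPM (counts scaled to library size with edgeR's TMM factors), had a mean ± SD of 37.4 ± 6.76 in the 6 KO libraries and 70.6 ± 5.14 in the 6 WT libraries at ZT1, and of 32.8 ± 1.92 in KO and 67.2 ± 2.39 in WT at ZT5. For ZT9 the means were 28.6 ± 3.30 CPM in KO and 30.8 ± 1.96 CPM in WT, with overlap between libraries. For ZT13 they were 31.3 ± 2.33 CPM over 5 KO libraries and 40.0 ± 3.52 CPM over 6 WT libraries.

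The comparison of KO with WT asks how the transcriptome differs without a working clock. Away from ZT1, Phagosome genes stayed mostly higher in KO and none was called lower. At an adjusted p below 0.05 in edgeR's quasi-likelihood test, adjusted over all genes, 24 of the 36 genes were higher in KO at ZT5, beside 15.5% of all genes tested. The count was 23 of 36 at ZT9, beside 16.3% of all genes, and 30 of 36 at ZT13, beside 18.6% of all genes. Of all genes, 15.5% were lower in KO at ZT5, 16.7% at ZT9 and 16.96% at ZT13, against 0 of the 36 at each time. No member was lower at an unadjusted p below 0.05 or by DESeq2 at any of the 3 times, with 0 in each case. The members were chosen as higher in KO at ZT1, which by itself makes lower calls less likely. The share called lower among all genes higher at ZT1 was not counted, so these counts of 0 cannot be read as a trait of the pathway.

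The changes were small for most genes. The median log2 fold change of KO over WT across the 36 genes was 0.22 at ZT5, 0.22 at ZT9 and 0.21 at ZT13, where the median over all genes tested was 0.01, -8.4e-05 and 0.0023 at those times. These medians correspond to 1.16-fold at ZT5, 1.17-fold at ZT9 and 1.16-fold at ZT13. At ZT1, which chose the genes, the median was 0.33 with a range of 0.15 to 1.51, and all 36 were above 0. The members nearest the edge of that choice were AAEL007845 at 0.15, AAEL000291 at 0.16 and AAEL006642 at 0.16, and the pathway genes just outside it were not analysed here. In 28 of the 36 genes the mean log2 fold change over the 3 later times was smaller than the value at ZT1.

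Genes that are higher in KO at 1 time tend to be higher at another. The members were therefore also read beside every gene that the same edgeR test called higher in KO at ZT1. Of those genes, 44.4% were higher at ZT5, 52.04% at ZT9 and 55.5% at ZT13. The Phagosome genes stood at 66.7% at ZT5, 63.9% at ZT9 and 83.3% at ZT13. The difference between these shares was not tested. The sets were not matched for level or for spread between libraries, on which a call also depends. All KO libraries lay above all WT libraries for 10 members at ZT5, 12 at ZT9 and 22 at ZT13, beside 6.24%, 6.46% and 9.84% of all genes at the same 3 times. For this separation the share among genes higher at ZT1 was not counted.

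**Figure D1:**
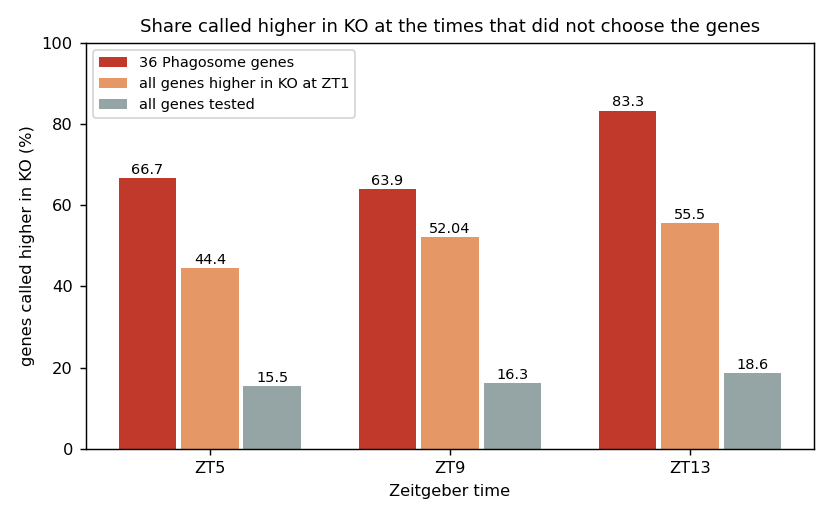
Bars give the percentage of genes called higher in KO than in WT at ZT5, ZT9 and ZT13, for the 36 Phagosome genes, for all genes called higher in KO at ZT1 by the same test, and for all genes tested. At ZT13 the 3 bars stand at 83.3%, 55.5% and 18.6%.

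By gene, 20 of the 36 were higher in KO at all 3 times, 6 at 2 of them, 5 at 1 of them and 5 at none. Over all genes tested at the 3 times, 7.67% were higher at every one. The same share among the genes higher in KO at ZT1 was not counted, so the part due to the choice of the members is not known. The 20 genes comprise 11 of the 13 V-ATPase genes, all 4 ER translocation genes, the chaperone AAEL015100, the cytoskeletal genes AAEL005052 and AAEL006642, the GTPase AAEL011500 and the plasma membrane gene AAEL009432. The 5 without a call were AAEL000234, AAEL002524, AAEL002833, AAEL004426 and AAEL012101.

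**Figure D2:**
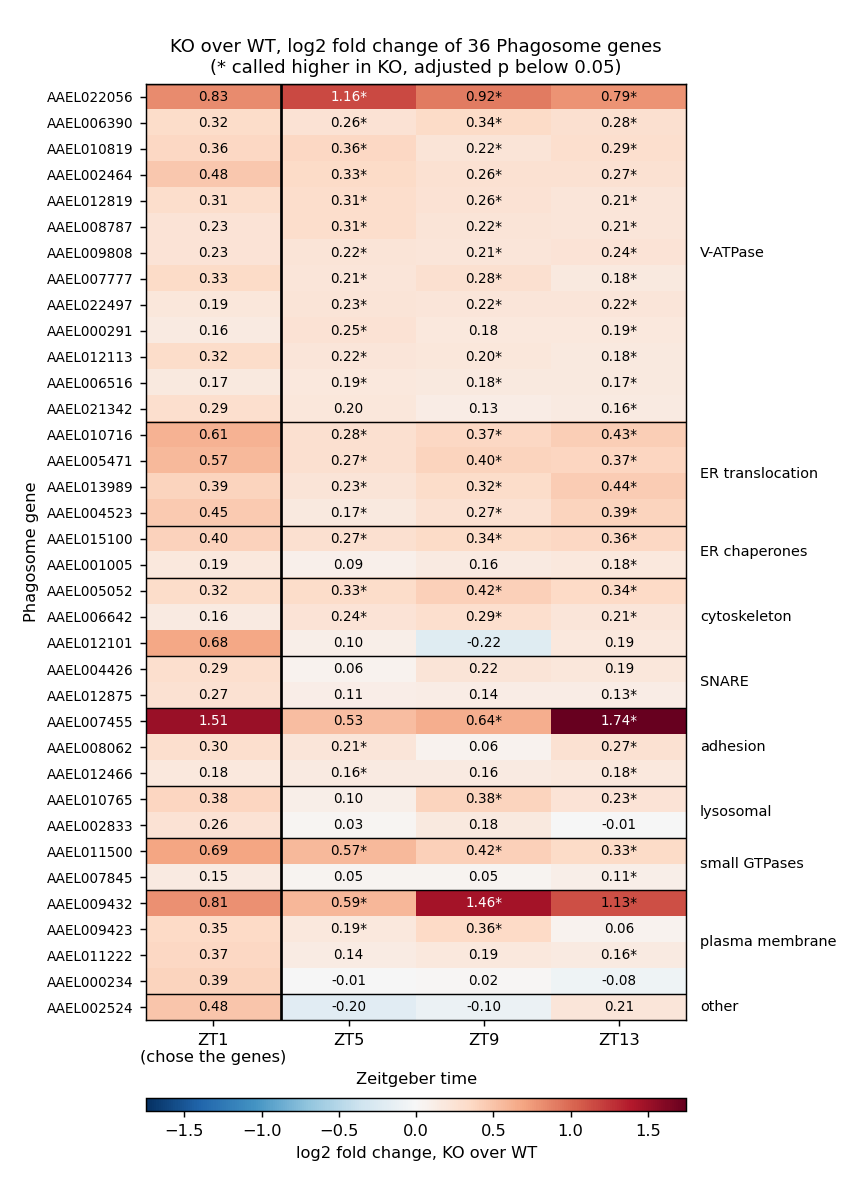
Each cell gives the log2 fold change of KO over WT of 1 Phagosome gene (rows, grouped by annotation) at 1 zeitgeber time (columns), and an asterisk marks a gene called higher in KO at an adjusted p below 0.05. ZT1 carries no asterisks because it chose the genes, and the largest values are 1.74 for AAEL007455 at ZT13, 1.46 for AAEL009432 at ZT9 and 1.16 for AAEL022056 at ZT5.

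The V-ATPase genes formed the largest group, and most of them were higher in KO at each time. Of the 13, 12 were higher in KO at ZT5, 11 at ZT9 and 13 at ZT13. Leaving out AAEL022056, the log2 fold changes of the other 12 lay between 0.19 and 0.36 at ZT5, between 0.13 and 0.34 at ZT9 and between 0.16 and 0.29 at ZT13, which is 13.8% to 28.0%, 9.78% to 26.4% and 11.9% to 22.1% above WT. The 6 genes under the term for the catalytic domain, which hydrolyses ATP, were all higher at each of the 3 times. Of the 5 under the term for the proton-transporting domain, the membrane part through which protons pass, 4 were higher at ZT5, 3 at ZT9 and 5 at ZT13. The median log2 fold change of the catalytic genes was 0.27 at ZT5, 0.24 at ZT9 and 0.21 at ZT13. For the proton-transporting genes these medians were 0.25, 0.20 and 0.19. The 2 V-ATPase genes under neither term, AAEL009808 and AAEL012819, were higher at all 3 times, at 0.22, 0.21 and 0.24 for AAEL009808 and at 0.31, 0.26 and 0.21 for AAEL012819.

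As an average over the 13 V-ATPase genes, the mean of log2(CPM + 1) ran between 7.10 and 7.42 in the KO libraries and between 6.80 and 7.06 in the WT libraries at ZT5. At ZT9 it ran between 7.10 and 7.42 in KO and between 6.85 and 7.07 in WT. The 5 KO libraries of ZT13 lay between 7.16 and 7.30, and the 6 WT libraries between 6.93 and 6.99. On this average no KO library overlapped with a WT library of its time. The average includes AAEL022056, the gene of the group with the largest change, and was not taken without it. The separation therefore cannot be credited to the other genes. Singly, all KO libraries lay above all WT libraries for 5 of the 13 genes at ZT5, 4 at ZT9 and 9 at ZT13. Over all genes this held for 6.24%, 6.46% and 9.84%.

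**Figure D3:**
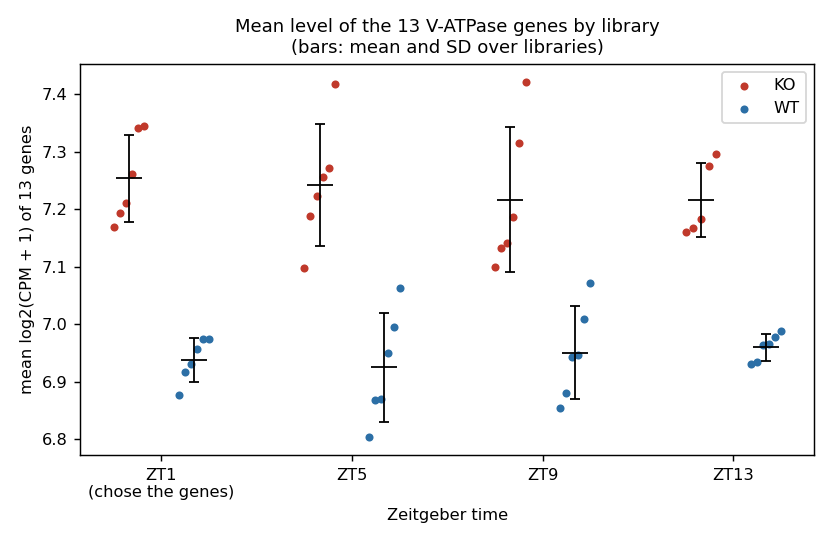
Each point is 1 library, placed by its mean log2(CPM + 1) over the 13 V-ATPase genes (vertical axis, which does not start at 0), with KO left of WT at each zeitgeber time and bars for the mean and SD over libraries. KO libraries lie above WT libraries of the same time, between 7.16 and 7.30 against 6.93 and 6.99 at ZT13. AAEL022056, the gene with the largest change, is part of the average.

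AAEL022056, 1 of the 6 catalytic-domain genes, had the largest change of the V-ATPase group. At ZT5 its lowest, median and highest values were 11.4, 11.6 and 13.2 CPM in KO, against 4.17, 5.23 and 6.69 CPM in WT. At ZT9 they were 10.3, 12.01 and 14.1 CPM in KO, against 5.53, 6.57 and 6.80 CPM in WT. Every KO library was above every WT library at both times. At ZT13 the KO libraries held 10.1, 11.8, 11.9, 12.01 and 13.1 CPM, against 4.90, 7.20 and 9.17 CPM as the lowest, median and highest in WT, again without overlap. The log2 fold change was 1.16 at ZT5 (standard error, SE, 0.11, adjusted p = 1.04e-05), 0.92 at ZT9 (SE 0.09, adjusted p = 8.26e-06) and 0.79 at ZT13 (SE 0.14, adjusted p = 0.00105). It was the 1 member of the pump past a log2 fold change of 1 at any of these times, at ZT5.

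At the other end of the group stood AAEL021342, a proton-domain gene. At ZT13 its KO libraries held 86.3, 92.7, 96.3, 97.8 and 99.4 CPM, against 74.2, 84.9 and 90.2 CPM as the lowest, median and highest in WT, so that 1 KO library lay within the WT range. The KO effect on the log2 scale was 0.20 at ZT5 (SE 0.07, adjusted p = 0.0522), 0.13 at ZT9 (SE 0.07, adjusted p = 0.172) and 0.16 at ZT13 (SE 0.05, adjusted p = 0.0282). The call at ZT13 was lost in 6 of the 11 fits that left out 1 library. AAEL000291, also of the proton domain, was the other V-ATPase gene without a call at every time, with 0.25 at ZT5, 0.18 at ZT9 (adjusted p = 0.0592) and 0.19 at ZT13.

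The remaining V-ATPase genes carried log2 fold changes, at ZT5, ZT9 and ZT13 in turn, of 0.26, 0.34 and 0.28 for AAEL006390, of 0.36, 0.22 and 0.29 for AAEL010819 and of 0.22, 0.20 and 0.18 for AAEL012113, all of the proton domain. The catalytic genes had 0.33, 0.26 and 0.27 for AAEL002464, 0.31, 0.22 and 0.21 for AAEL008787, 0.21, 0.28 and 0.18 for AAEL007777, 0.23, 0.22 and 0.22 for AAEL022497, and 0.19, 0.18 and 0.17 for AAEL006516. At ZT9 the call was lost on leaving out 1 library in 7 of 12 fits for AAEL012113, in 6 for AAEL010819, in 5 for AAEL012819 and in 2 for AAEL008787, so that the V-ATPase count of 11 at ZT9 rests in part on these 4 genes. No V-ATPase gene was called in the genotype by time interaction over ZT5, ZT9 and ZT13, where the lowest p of the group was 0.0972 unadjusted (AAEL022056, adjusted p = 0.675), and DESeq2 called none of them.

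The ER translocation genes, whose products serve to pass new proteins into or through the ER membrane, were higher in KO at every time, 4 of 4. Their median log2 fold change was 0.25 at ZT5, 0.34 at ZT9 and 0.41 at ZT13. AAEL010716 had the largest mean change. Its lowest, median and highest values were 108.4, 127 and 144 CPM in KO, against 101, 104 and 108.2 CPM in WT at ZT5. At ZT9 they were 99.1, 111 and 145 CPM in KO, against 87.6, 88.6 and 95.9 CPM in WT. At ZT13 the KO libraries held 101, 103, 108, 132 and 135 CPM, against 77.7, 85.3 and 91.7 CPM in WT. The KO libraries stayed above the WT libraries at all 3 times, and the log2 fold change was 0.28 (SE 0.07, adjusted p = 0.00701), 0.37 (SE 0.08, adjusted p = 0.00533) and 0.43 (SE 0.08, adjusted p = 0.000874) at ZT5, ZT9 and ZT13.

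AAEL004523 had the smallest mean change of the 4. At ZT5 it ran at 198, 231 and 242 CPM in KO (lowest, median, highest), against 190, 198 and 217 CPM in WT, with overlap. At ZT13 its KO libraries held 184, 202, 203, 217 and 232 CPM, against 149, 158.5 and 165 CPM in WT, without overlap. The log2 fold change was 0.17 at ZT5 (SE 0.05, adjusted p = 0.0276), 0.27 at ZT9 (SE 0.06, adjusted p = 0.00693) and 0.39 at ZT13 (SE 0.06, adjusted p = 0.000178). The call at ZT5 was lost in 6 of the 12 fits that left out 1 library. AAEL005471 had 0.27, 0.40 and 0.37 at the 3 times, and AAEL013989 had 0.23, 0.32 and 0.44.

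Of the ER chaperones, grouped by the term for unfolded protein binding, AAEL015100 was higher at all 3 times without overlap between genotypes. At ZT9 its lowest, median and highest values were 149, 156 and 164 CPM in KO, against 115, 122 and 135 CPM in WT, and the log2 fold change was 0.27 at ZT5 (SE 0.05, adjusted p = 0.000724), 0.34 at ZT9 (SE 0.05, adjusted p = 0.000365) and 0.36 at ZT13 (SE 0.05, adjusted p = 0.000108). AAEL001005, of the ER lumen, was called at ZT13. There the KO libraries held 685, 742, 743, 743 and 770 CPM, against 611, 645 and 684 CPM as the lowest, median and highest in WT, so that every KO library was above every WT library. On the log2 scale the difference was 0.09 at ZT5 (SE 0.05, adjusted p = 0.20), 0.16 at ZT9 (SE 0.06, adjusted p = 0.052) and 0.18 at ZT13 (SE 0.05, adjusted p = 0.00835).

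The time course was then read within each genotype over the 3 times that did not choose the genes. In WT, 11 of the 36 genes changed over ZT5, ZT9 and ZT13 by edgeR's test of time, beside 9.86% of all genes. They comprised all 4 ER translocation genes, both ER chaperones, both lysosomal genes, the plasma membrane genes AAEL009432 and AAEL009423 and the GTPase AAEL011500. None of the 13 V-ATPase genes was called in WT, with 0 at an unadjusted p below 0.05 and 0 by DESeq2, and their adjusted p ran from 0.262 to 0.975. In KO, 0 of the 36 genes were called over time, beside 2.203% of all genes. In KO 7 members had an unadjusted p below 0.05, and DESeq2 called 1, AAEL009432, whose adjusted p in edgeR was 0.0651. The share of all genes below that unadjusted p was not counted in either genotype, so these unadjusted counts have nothing to stand beside. A call in WT and none in KO does not show that the time courses differ, and the interaction that tests it called 1 member, AAEL009432, beside 0.285% of all genes.

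The 4 ER translocation genes and the chaperone AAEL015100 were lower in WT at ZT13 than at ZT5. Relative to ZT5, the log2 change in WT at ZT13 was -0.36 for AAEL004523 (adjusted p of the time test 8.9e-06), -0.30 for AAEL010716 (9.08e-05), -0.38 for AAEL013989 (0.000288) and -0.24 for AAEL005471 (0.0131). AAEL004523 averaged 202 ± 10.5 CPM at ZT5, 169 ± 4.52 CPM at ZT9 and 158 ± 7.17 CPM at ZT13 in WT (SD, n = 6 each). In KO it averaged 228 ± 16.2 CPM at ZT5, 204 ± 19.6 CPM at ZT9 (n = 6 each) and 208 ± 18.1 CPM at ZT13 (n = 5), with an adjusted p of 0.428 over time. The chaperone AAEL015100 had a log2 change of -0.20 in WT at ZT13 relative to ZT5 (0.00927), whereas AAEL001005 was lowest at ZT9 in WT, at 586 ± 18.4 CPM, against 665 ± 27.8 CPM at ZT5 and 648 ± 28.2 CPM at ZT13 (0.0059). The interaction was not called for any of these 6 genes, with adjusted p from 0.499 for AAEL004523 to 0.907 for AAEL005471.

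**Figure D4:**
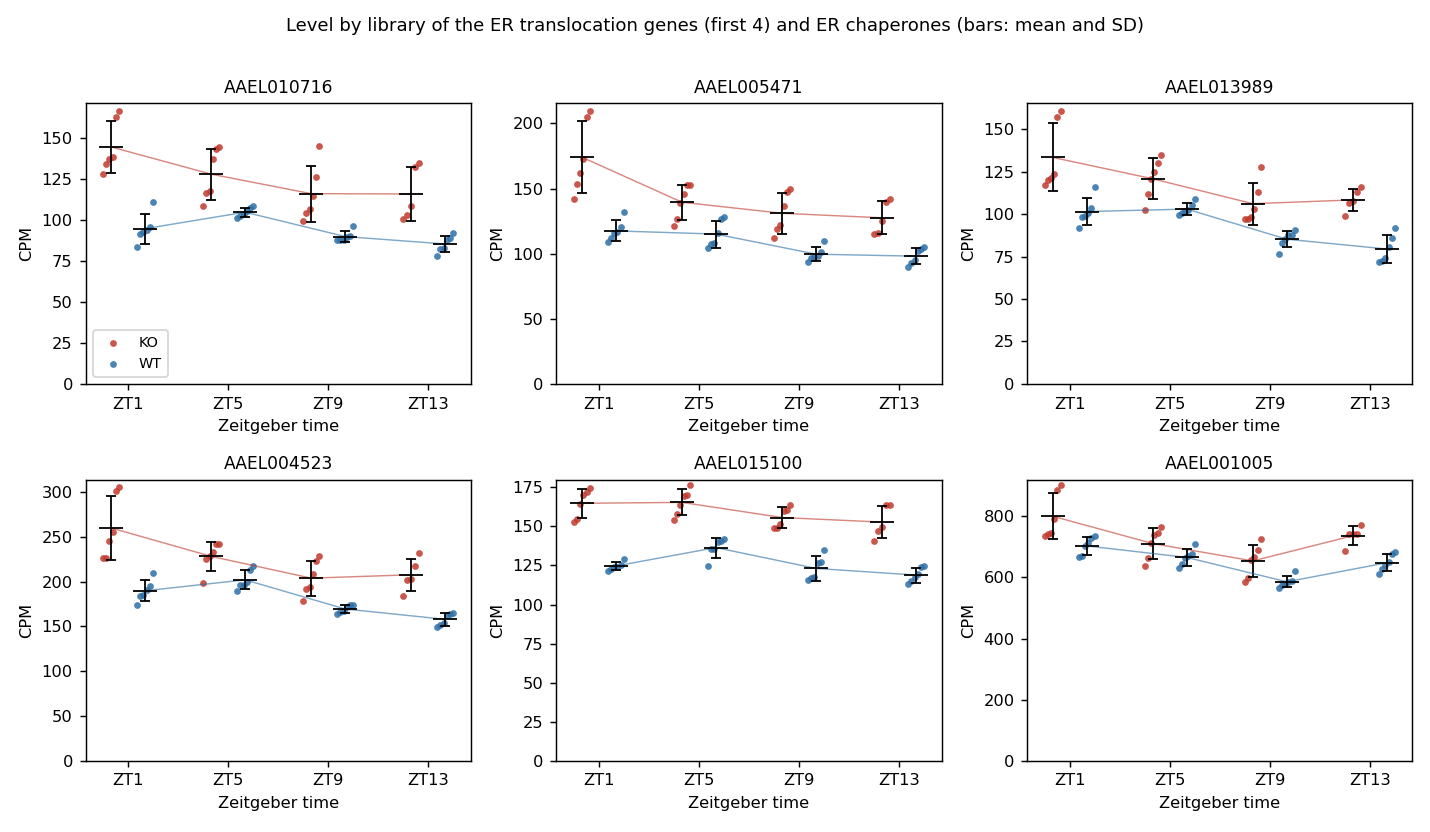
Points give CPM in each library for the 4 ER translocation genes and the 2 ER chaperones, with KO left of WT at each zeitgeber time and bars for the mean and SD. WT means of AAEL004523 stand at 202, 169 and 158 CPM at ZT5, ZT9 and ZT13, and KO means at 228, 204 and 208 CPM.

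For the V-ATPase genes, group means at the 4 times are given as a description, with no test against the ER genes. The highest group mean of a gene was 1.03 to 1.10 times its lowest in KO, with a median ratio of 1.05 over the 13 genes, and 1.02 to 1.28 times in WT, also with a median of 1.05. The WT ratio of 1.28 belongs to AAEL022056 and the next, 1.117, to AAEL007777. The ER translocation genes had ratios of 1.198 to 1.296 in WT and of 1.248 to 1.365 in KO, with ZT1 among the 4 times. In KO all 4 of these genes were highest at ZT1, so their KO ratios rest on values that chose the members. Those KO ratios are therefore no measure of change over time beside the V-ATPase genes. The V-ATPase gene AAEL000291, for example, averaged 1616 ± 84.6 CPM at ZT1, 1486 ± 119 CPM at ZT5, 1518 ± 82.7 CPM at ZT9 and 1491 ± 56.2 CPM at ZT13 in WT (SD, n = 6 each). These values differed by less than the spread between libraries from ZT5 to ZT13.

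AAEL009432, a plasma membrane gene, had the largest mean change of the 36 genes over the 3 times. At ZT5 its lowest, median and highest values were 17.7, 19.6 and 24.1 CPM in KO, against 10.6, 13.4 and 16.1 CPM in WT. At ZT9 they were 14.9, 16.2 and 19.8 CPM in KO, against 4.94, 5.84 and 8.68 CPM in WT. At ZT13 the KO libraries held 10.5, 12.8, 13.5, 15.4 and 18.9 CPM, against 5.57, 6.16 and 8.02 CPM in WT. KO and WT libraries did not overlap at any of these times. The log2 fold change was 0.59 at ZT5 (SE 0.10, adjusted p = 0.00077), 1.46 at ZT9 (SE 0.13, adjusted p = 5.17e-06) and 1.13 at ZT13 (SE 0.13, adjusted p = 4.63e-05).

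In WT the log2 change of AAEL009432 relative to ZT5 was -1.11 at ZT9 (SE 0.13) and -1.05 at ZT13 (SE 0.13), with an adjusted p of 4.98e-06 for time. In KO the same changes were -0.24 (SE 0.11) and -0.51 (SE 0.12). The KO effect was larger at ZT9 than at ZT5 by 0.87 on the log2 scale and larger at ZT13 than at ZT5 by 0.54, and the interaction had an adjusted p of 0.0314. With the replicate number as a block the adjusted p of the interaction was 0.057, and with the left-out library added it was 0.146. The latter fit held the same counts under both genotypes, as KO ZT13 replicate 1 and as WT ZT9 replicate 2. At ZT1, KO libraries averaged 21.0 ± 3.30 CPM and WT libraries 12.005 ± 0.787 CPM (mean ± SD, 6 libraries each).

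The other plasma membrane genes moved less. AAEL009423 was higher in KO at ZT5, by 0.19 on the log2 scale, and at ZT9, by 0.36, and had 0.06 at ZT13 (adjusted p = 0.571), where its WT mean of 42.7 ± 4.02 CPM was above the WT mean of 35.9 ± 2.05 CPM at ZT9 (adjusted p for time in WT 0.0194). AAEL011222 had 0.14, 0.19 and 0.16 at ZT5, ZT9 and ZT13, with a call at ZT13. Of these calls, AAEL009423 lost that of ZT5 in 4 of the 12 fits that left out 1 library, and AAEL011222 that of ZT13 in 4 of 11. AAEL000234 was not called at any time. Its lowest, median and highest values at ZT5 were 28.0, 30.7 and 36.3 CPM in KO, against 29.5, 32.0 and 34.2 CPM in WT, and at ZT13 the KO libraries held 33.9, 34.4, 34.995, 35.9 and 36.1 CPM, against 33.8, 37.2 and 39.4 CPM in WT. The genotypes overlapped, with log2 fold changes of -0.01 at ZT5 (SE 0.07, adjusted p = 0.929), 0.02 at ZT9 (SE 0.08, adjusted p = 0.863) and -0.08 at ZT13 (SE 0.05, adjusted p = 0.202). At ZT1 the value that chose it was 0.39.

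The adhesion gene AAEL007455 had the largest change at any 1 time. At ZT13 its KO libraries held 6.04, 8.03, 8.64, 9.02 and 9.48 CPM, against 1.56, 2.36 and 3.40 CPM as the lowest, median and highest in WT, without overlap. At ZT5 the values were 4.50, 5.98 and 7.76 CPM in KO, against 2.97, 3.44 and 6.06 CPM in WT, and at ZT9 3.90, 5.07 and 8.18 CPM in KO, against 2.21, 3.50 and 4.80 CPM in WT. The libraries overlapped at both of these times. The log2 fold change was 0.53 at ZT5 (SE 0.20, adjusted p = 0.0552), 0.64 at ZT9 (SE 0.21, adjusted p = 0.0292) and 1.74 at ZT13 (SE 0.18, adjusted p = 1.36e-05). The call at ZT9 was lost in 4 of the 12 fits that left out 1 library. The interaction missed the threshold in edgeR, with an adjusted p of 0.0889, and was called by DESeq2 (adjusted p = 0.0145). At ZT1 the KO libraries spread from 1.21 to 8.50 CPM, against 0.932 to 2.36 CPM in WT, the widest spread of this gene.

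The other adhesion genes changed little. AAEL012466, also held by a term for transcription factor activity, had 0.16 at ZT5 (SE 0.04, adjusted p = 0.00912), 0.16 at ZT9 (SE 0.07, adjusted p = 0.105) and 0.18 at ZT13 (SE 0.04, adjusted p = 0.0025). At ZT13 the KO libraries held 126, 129, 133, 136 and 140 CPM, against 114, 117 and 121 CPM in WT, without overlap. AAEL008062 had 0.21 at ZT5, 0.06 at ZT9 (adjusted p = 0.731) and 0.27 at ZT13, with calls at ZT5 and ZT13 that were lost in 4 of 12 and in 1 of 11 fits that left out 1 library.

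**Figure D5:**
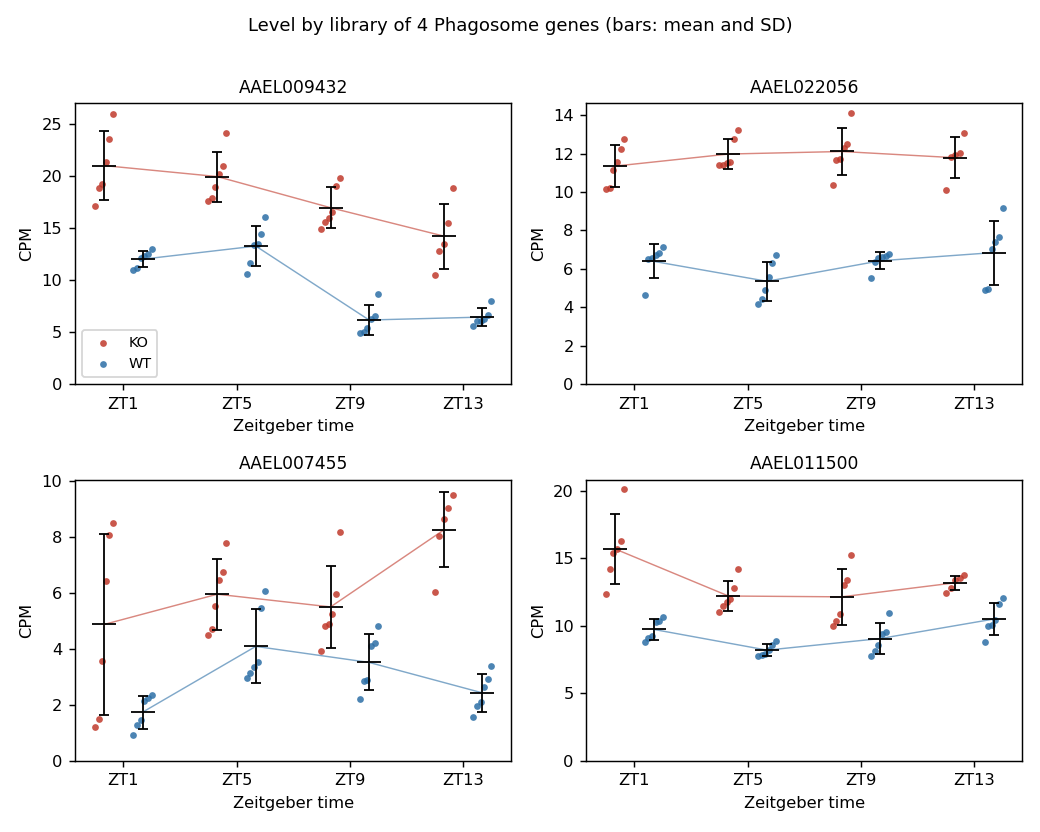
Points give CPM in each library for AAEL009432 (plasma membrane), AAEL022056 (V-ATPase), AAEL007455 (adhesion) and AAEL011500 (GTPase), with KO left of WT at each zeitgeber time and bars for the mean and SD. WT levels of AAEL009432 have a median of 13.4 CPM at ZT5 and 5.84 CPM at ZT9, and KO levels a median of 19.6 CPM and 16.2 CPM.

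Small GTPases direct membrane traffic and the cytoskeleton. AAEL011500, held by terms for hemopoiesis, cell migration and melanin, was higher in KO at all 3 times. At ZT5 its lowest, median and highest values were 11.1, 11.9 and 14.2 CPM in KO, against 7.73, 8.06 and 8.90 CPM in WT, without overlap. At ZT13 the KO libraries held 12.5, 12.8, 13.4, 13.6 and 13.8 CPM, against 8.78, 10.3 and 12.1 CPM in WT, without overlap. The difference on the log2 scale was 0.57 at ZT5 (SE 0.07, adjusted p = 7.81e-05), 0.42 at ZT9 (SE 0.12, adjusted p = 0.0161) and 0.33 at ZT13 (SE 0.08, adjusted p = 0.00752). In WT it was higher at ZT13 than at ZT5 by 0.35 on the log2 scale (adjusted p for time 0.0373). AAEL007845, which the endocytosis term also holds, ran at 279, 282, 284, 286 and 301 CPM in KO at ZT13, against 259, 264 and 272 CPM in WT. Its log2 fold change was 0.05 at ZT5 (SE 0.04, adjusted p = 0.445), 0.05 at ZT9 (SE 0.06, adjusted p = 0.488) and 0.11 at ZT13 (SE 0.04, adjusted p = 0.037), the smallest change among the calls and lost in 8 of the 11 fits that left out 1 library.

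Of the lysosomal genes, AAEL010765, a gene of the endosome membrane, was called at ZT9 and ZT13. At ZT9 its lowest, median and highest values were 471, 523 and 565 CPM in KO, against 371, 405 and 421 CPM in WT, without overlap. At ZT5 they were 431, 489 and 509 CPM in KO, against 412, 446 and 480 CPM in WT, with overlap. The log2 fold change was 0.10 at ZT5 (SE 0.05, adjusted p = 0.192), 0.38 at ZT9 (SE 0.06, adjusted p = 0.000532) and 0.23 at ZT13 (SE 0.04, adjusted p = 0.000721), and the interaction had an adjusted p of 0.134 in edgeR and 0.028 in DESeq2. In WT its mean was 444 ± 24.9 CPM at ZT5, 399 ± 23.6 CPM at ZT9 and 454 ± 12.7 CPM at ZT13 (adjusted p for time 0.0168).

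AAEL002833, held by a term for cysteine-type peptidases, enzymes that break down protein in the lysosome, was called at no time. At ZT13 its KO libraries held 562, 565, 632, 634 and 646 CPM, against 547, 615 and 649 CPM in WT, so that KO lay within the WT range. Its log2 fold change was 0.03 at ZT5 (SE 0.07, adjusted p = 0.768), 0.18 at ZT9 (SE 0.10, adjusted p = 0.166) and -0.01 at ZT13 (SE 0.05, adjusted p = 0.928). In WT it averaged 528 ± 49.1 CPM at ZT9 and 609 ± 34.7 CPM at ZT13 (adjusted p for time 0.0431, and 0.0561 without the filter on low counts).

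Tubulins and other structural constituents of the cytoskeleton form the tracks along which phagosomes travel. AAEL005052 and AAEL006642 were both higher in KO at all 3 times. AAEL005052 ran at 74.5, 89.4 and 106 CPM in KO at ZT9 (lowest, median, highest), against 53.5, 73.3 and 76.3 CPM in WT, with overlap, and its log2 fold change was 0.33 at ZT5 (SE 0.08, adjusted p = 0.00552), 0.42 at ZT9 (SE 0.10, adjusted p = 0.00855) and 0.34 at ZT13 (SE 0.08, adjusted p = 0.00437). AAEL006642 had 0.24, 0.29 and 0.21, without overlap at any of the times. AAEL012101 had a low level and no call. At ZT9 its lowest, median and highest values were 1.76, 2.45 and 2.85 CPM in KO, against 2.42, 2.76 and 3.17 CPM in WT, and its log2 fold change was 0.10 at ZT5 (SE 0.14, adjusted p = 0.596), -0.22 at ZT9 (SE 0.14, adjusted p = 0.244) and 0.19 at ZT13 (SE 0.20, adjusted p = 0.484).

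Among the SNARE genes, which fuse membranes, and the gene without another term, 1 call was made over the 3 times. The SNARE gene AAEL012875 was called at ZT13, where the KO libraries held 64.1, 65.0, 68.6, 69.1 and 74.3 CPM, against 59.2, 61.7 and 65.9 CPM in WT, with overlap. Its log2 fold change was 0.11 at ZT5 (SE 0.06, adjusted p = 0.194), 0.14 at ZT9 (SE 0.06, adjusted p = 0.114) and 0.13 at ZT13 (SE 0.05, adjusted p = 0.043), a call lost in 7 of the 11 fits that left out 1 library. AAEL004426 had no call, with 15.4, 17.7 and 20.4 CPM in KO at ZT9, against 13.3, 14.2 and 18.3 CPM in WT. The log2 difference was 0.06 at ZT5 (SE 0.07, adjusted p = 0.526), 0.22 at ZT9 (SE 0.09, adjusted p = 0.0786) and 0.19 at ZT13 (SE 0.08, adjusted p = 0.0811). AAEL002524 ran at 2.03, 2.95 and 3.75 CPM in KO at ZT5, against 1.94, 3.51 and 4.15 CPM in WT, and had -0.20 at ZT5 (SE 0.20, adjusted p = 0.476), -0.10 at ZT9 (SE 0.17, adjusted p = 0.687) and 0.21 at ZT13 (SE 0.17, adjusted p = 0.358). The SEs of AAEL002524 and AAEL012101, 0.14 to 0.20, were close to the size of the change seen in most V-ATPase genes, and the parts of depth and of spread between libraries in them were not tested.

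For comparison, genes of 2 related KEGG terms were taken from the same ZT1 list, leaving out the 36 members. Of 30 Lysosome genes, 16 were higher in KO at ZT5, 17 at ZT9 and 13 at ZT13, where 1 was lower. Of 32 genes of protein processing in the ER, 13 were higher at ZT5, 19 at ZT9 and 24 at ZT13. The Phagosome counts of 24, 23 and 30 of 36 stand beside these, and the differences between lists were not tested.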

How the data were processed

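The 36 genes and the comparison lists were chosen with earlier results of these data known. Genes were grouped by the other terms that hold them in the study's enrichment sheet, and those described in full were the members with the largest and smallest mean log2 fold change of each group, those without a call and those called in the interaction. The authors trimmed paired-end reads with Trim Galore 0.6.6, used HISAT2 2.2.1 for alignment to AaegL5_2 of VectorBase and HTSeq 0.11.3 for counting, and what was deposited is raw counts of reads for each gene, without normalization. Summary lines that name no gene were dropped, after which 18.4% to 31.7% of each library's total remained, as counts on genes. Alignments marked as not unique made up 25.6% to 55.5% of the total and entered no gene count. Counts of near-identical copies, possible among V-ATPase and cytoskeletal genes, are therefore uncertain. Whether a read with several alignments enters that total once was not checked, so these percentages are not shares of reads. No source used here states the strand option of the counting.

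From the counts, KO was compared with WT at ZT5, ZT9 and ZT13, time was tested within each genotype over these times, and the genotype by time interaction was tested over 35 libraries, with edgeR 4.0.16 (R 4.3.3; TMM factors, filterByExpr, quasi-likelihood test). Adjustment was by Benjamini-Hochberg over all genes and calls were made below 0.05. Each SE was taken as the size of the log2 fold change divided by the root of F. Labels name the libraries of a group biological replicates, and nothing more is said of separate rearings, so that p-values measure the spread between these pools. Libraries of the same replicate number were not treated as pairs in the main fits. Their deviations from the group means correlated above 0.1 in 7 of 23 pairs, with r from -0.37 to 0.33. The same number was the best match in 3 of the 23. No value for unpaired libraries was set beside these, so pairing was not excluded. Alternatives were DESeq2 1.42.0, edgeR with DESeq2's size factors, testing without the filter, a replicate block, a single fit of 47 libraries, a log2 fold change over 1 and leaving out each library, and leaving out libraries in the time and interaction tests was chosen after seeing the data. On simulated counts with 200 genes changed 1.5-fold, the comparison at ZT5 recovered 183 among 11674 genes and called 11 others, at ZT13 184 among 11459 with 9 others, time in WT 187 among 11800 with 7 others, and the interaction 175 among 12175 with 7 others. The changed genes lay above a minimum level that AAEL002524 and AAEL012101 did not reach. Most members changed less than 1.5-fold, with a median of 1.16-fold at ZT5. The simulation therefore does not tell how often changes of that size are found. Of the identifiers, 0 matched the reference table used here, so that gene names, sequences, markers of tissues and other genes of the pathway are not analysed here.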

Additional observations from a re-analysis of the deposited data

Results flagged for a closer look

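For AAEL009432 the genotype by time interaction over ZT5, ZT9 and ZT13 passed the threshold in edgeR, with an adjusted p of 0.0314, and no longer passed it with the replicate number as a block (0.057) or with the left-out library added (0.146). Since the left-out library has the counts of WT ZT9 replicate 2, the fit with it used the same counts under both genotypes. Its log2 fold change of KO over WT was above 0 at all 3 times, at 0.59, 1.46 and 1.13.

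Among 288 combinations of gene and group, 9 held a library whose gap to the nearest other library exceeded Dixon's 95% critical value, where chance flags about 1 in 20 groups. KO ZT5 replicate 6 was the highest of its group in 3 V-ATPase genes, with 2067 CPM of AAEL000291 where the other 5 libraries lay between 1626 and 1746, 182.1 CPM of AAEL006390 where they lay between 153 and 162.1, and 628.2 CPM of AAEL008787 where they lay between 531.8 and 551.3. The V-ATPase gene AAEL022056 was lowest in WT ZT1 replicate 5, at 4.647 CPM, and in WT ZT9 replicate 2, the library that also carries the label KO ZT13 replicate 1, at 5.534 CPM. AAEL002464 reached 66.59 CPM in KO ZT9 replicate 5. In WT ZT9 replicate 6, AAEL002833 stood at 626 CPM and AAEL010716 at 95.9 CPM. AAEL012466 stood at 135.4 CPM in WT ZT5 replicate 5.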

How the results depend on the processing

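Counts of members higher in KO stayed within 1.5 times of the main 24 at ZT5, 23 at ZT9 and 30 at ZT13 under DESeq2, its size factors, no filter, the replicate block, a single fit of 47 libraries and, at ZT13, the left-out library, except that a log2 fold change over 1 beside the adjusted p left 1, 1 and 2. Leaving out 1 library gave 21 to 26 at ZT5, 18 to 28 at ZT9 (28 without WT ZT9 replicate 4, 18 without WT ZT9 replicate 3) and 25 to 31 at ZT13, and 21 at ZT9 without the library of 2 labels, WT ZT9 replicate 2. Calls over all genes at ZT9, in either direction, moved the same way. They were 4859 without WT ZT9 replicate 4 and 3019 without WT ZT9 replicate 3, against 3856 in the main fit. Time in WT gave 9 to 11 members, time in KO 0 to 1 and the interaction 1 under each of 6 libraries left out. DESeq2 called 1 member over time in KO, where edgeR called 0, and 3 in the interaction, where edgeR called 1. The fit with the replicate number as a block gave 24, 18 and 25 members at ZT5, ZT9 and ZT13, 1 over time in KO and 0 in the interaction, which the left-out library also brought to 0. With this block, 2975, 3129 and 3053 of all genes were called at ZT5, ZT9 and ZT13, against 3636, 3856 and 4095. Of 77 calls of a member at a time, 58 held under every alternative with a test and 13 were lost when 1 library was left out, with no change of sign. Uncalled values near 0 changed sign when 1 library was left out: AAEL000234 ran from -0.0565 to 0.0239 at ZT5 and from -0.0094 to 0.0821 at ZT9, AAEL002833 from -0.0129 to 0.0646 at ZT5 and from -0.0359 to 0.0175 at ZT13, and AAEL008062 from -0.00936 to 0.156 at ZT9. Over all genes, the left-out library brought the calls at ZT13 to 2129, against 4095, and those over time in KO to 160, against 262. Fits with the left-out library used, under a KO label, the counts of WT ZT9 replicate 2. DESeq2 called 576 genes over time in KO, and 117 in the interaction, against 35. The cause of these shifts was not tested. Levels per coding length were not run, because no protein lengths were used. For the low genes AAEL002524 and AAEL012101, SEs of 0.14 to 0.20 limit which changes could be called, and depth and spread between libraries were not separated.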
